A study of Mus musculus with 5 samples.

Results

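The circadian clock genes of the mouse uterus were examined as 10 members, namely Arntl, Clock, Per1, Per2, Per3, Cry1, Cry2, Nr1d1, Dbp and Tef. They were chosen by name, and all 10 were found among the 28666 genes of the count table. All 10 had enough counts to be tested, as did 17013 genes in total. The question was whether the clock stood at another point of its cycle in some libraries, or in one of the groups, as a check on the time of collection. RNA came from the uteri of ICR females aged 6 to 8 weeks that had been caged in estrus with vasectomized C57BL/6 males, whose ejaculate carries seminal plasma (SP) without sperm. Aged males were the partners in the aged-SP group (replicates 1 and 4) and young males in the young-SP group (replicates 1, 2 and 4). All females were thus mated and pseudopregnant, with no embryo in the uterus, and no unmated group was analysed here. The series description places collection 3.5 days after caging, whereas the methods of the paper name a point before embryo transfer that is counted from mating. These counts start from different events, so their order cannot be read from them. The methods count days from a morning check for plugs, but the hour at which each uterus was taken is not given in the sources used here. The animals were kept in light and dark periods of equal length. The labels do not say whether each library is 1 female, so p-values measure the spread between these libraries only.

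The mammalian clock is a feedback loop of transcription that most cells run. Arntl (also called Bmal1) and Clock encode the partners of an activator that binds E-boxes and drives the Per and Cry genes, Nr1d1, Dbp and Tef. PER and CRY proteins then inhibit that activator, and NR1D1 (REV-ERBα) represses Arntl, so that Arntl and Nr1d1 are high at opposite times. DBP and TEF bind D-boxes and form the link to many output genes. In peripheral tissues of the mouse, Nr1d1 and Dbp usually peak in the light period, the Per genes near its end, Cry1 in the dark period and Arntl around the end of the dark period. The uterus has a clock of this kind, which can be set by feeding and hormones as well as by light.

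Total counts lay between 15071914 and 16728601 per library, and a member had between 128 counts (Arntl in aged-SP replicate 4) and 2805 counts (Tef in the same library). Markers fixed for uterine tissue were present throughout, with summed levels of 8502 to 13535 CPM (counts scaled to library size with TMM factors) for myometrium, 6304 to 11112 CPM for endometrial stroma and 720.02 to 1571 CPM for epithelium. The young-SP libraries were not alike in hormone-regulated genes. The list of estrogen-response genes summed to 8270 CPM in young-SP replicate 1, close to the 9093 and 9581 CPM of the aged-SP libraries, and to 427 and 1137 CPM in young-SP replicates 2 and 4. Not all genes of the list had this pattern. Greb1 was at 17.5, 14.8 and 10.6 CPM in young-SP replicates 1, 2 and 4, against 40.9 and 60.2 CPM in the aged-SP libraries. In whole tissue, fewer cells of a type and less RNA per cell cannot be told apart.

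Promoters of the members (from 250 bases before to 50 after a start site) were read from RefSeq on GRCm38.p6, where 9 of the 10 members were matched and Per2 was not. They were searched on both strands for the E-box CACGTG, the related E-prime box CACGTT, the D-box TTATGTAA and the core TAGGTCA or TGGGTCA of the element bound by NR1D1 and the ROR proteins. An E-box was found in 3 of the 9 promoters (Per1, Cry1 and Tef), an E-prime box in 3 (Cry1, Cry2 and Nr1d1) and a D-box in 1 (Per3), while the last element was found in 0 of them. Only exact matches in this window were sought. Variant forms and sites outside the window were not, so a promoter without a match, such as that of Arntl, may still hold the element. Over 32851 promoters of the same length in the table, 7.15% held the E-box, 4.68% the E-prime box, 0.938% the D-box and 6.45% the last element. The promoters of Nr1d1, Per3, Cry1 and Tef are shown because these 4 genes carry such a match and their groups did not overlap, with the aged-SP libraries on the higher side. They lie on the minus strand at chr11:98775328-98775627 (Nr1d1), chr4:151044616-151044915 (Per3) and chr10:85185005-85185304 (Cry1) and on the plus strand at chr15:81802423-81802722 (Tef), are written 5′ to 3′, and the capitals mark the matches (the E-prime box reads AACGTG where it lies on the other strand). The RefSeq starts of these genes lie 44 (Nr1d1), 0 (Per3), 10 (Cry1) and 252 (Tef) bases from the deposited gene starts. The start used for Per1, whose E-box is counted above, lies 3732 bases from its deposited gene start.
Nr1d1: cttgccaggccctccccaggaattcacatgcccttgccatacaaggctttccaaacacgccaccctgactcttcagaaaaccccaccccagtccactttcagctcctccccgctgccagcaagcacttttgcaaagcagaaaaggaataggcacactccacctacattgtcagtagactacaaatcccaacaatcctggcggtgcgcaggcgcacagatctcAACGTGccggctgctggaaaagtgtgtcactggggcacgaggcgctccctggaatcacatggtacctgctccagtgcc
Per3: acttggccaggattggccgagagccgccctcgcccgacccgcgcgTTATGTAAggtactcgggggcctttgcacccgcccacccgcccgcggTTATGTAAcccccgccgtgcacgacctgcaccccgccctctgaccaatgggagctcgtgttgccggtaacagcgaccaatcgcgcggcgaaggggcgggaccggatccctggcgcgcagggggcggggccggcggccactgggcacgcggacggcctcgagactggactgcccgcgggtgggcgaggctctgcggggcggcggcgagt
Cry1: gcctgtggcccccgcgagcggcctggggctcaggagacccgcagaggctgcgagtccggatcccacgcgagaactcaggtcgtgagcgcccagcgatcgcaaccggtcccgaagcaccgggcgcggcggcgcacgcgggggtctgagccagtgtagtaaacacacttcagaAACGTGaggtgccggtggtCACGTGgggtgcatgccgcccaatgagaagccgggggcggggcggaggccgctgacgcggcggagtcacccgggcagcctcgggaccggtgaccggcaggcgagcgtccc
Tef: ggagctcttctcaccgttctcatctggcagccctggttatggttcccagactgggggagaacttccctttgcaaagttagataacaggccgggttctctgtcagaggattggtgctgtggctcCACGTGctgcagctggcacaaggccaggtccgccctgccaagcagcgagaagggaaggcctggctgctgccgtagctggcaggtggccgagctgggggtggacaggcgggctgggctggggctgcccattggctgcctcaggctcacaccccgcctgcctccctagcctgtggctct
The matches are descriptions of letters and not sites of binding. Relative to the start site, the D-boxes of Per3 begin at -205 and -158, the E-prime box and the E-box of Cry1 at -79 and -60, the E-prime box of Nr1d1 at -28, and the E-box of Tef at -127.

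Of the members, 8 had a mean on the higher side in the aged-SP group, and Arntl and Clock on the lower side. A gene was called where edgeR's quasi-likelihood test gave it an adjusted p below 0.05 together with more than 1 log2 unit of change in either direction. By this rule 0 of the 10 members were called, against 25 of all tested genes (0.147%, with 0.0823% higher and 0.0647% lower). The adjusted p alone also called 0 members, against 0.153%, and the limit on the fold alone was passed by 2 (Dbp and Per3), against 9.16%. At an unadjusted p under 0.05 there were 4 members (Nr1d1, Dbp, Per3 and Cry1), each higher in the aged-SP group, against 19.0% of all tested genes (9.62% higher and 9.36% lower). The groups did not overlap for 7 members, with 5 higher (Nr1d1, Dbp, Per3, Tef and Cry1) and 2 lower (Arntl and Clock) in the aged-SP group, against 38.8% of all tested genes, of which about equal shares were higher (19.5%) and lower (19.3%). The median log2 fold change (aged-SP over young-SP) was 0.54 over the 10 members and 0.01 over all tested genes. DESeq2's Wald test, the tool that the methods of the paper name, put 3 members (Nr1d1, Dbp and Per3) below 0.05 after adjustment, against 7.58% of the 17536 genes with an adjusted p in that test. It called 2 of them with the fold limit (Dbp and Per3), against 3.60%.

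**Figure D1:**
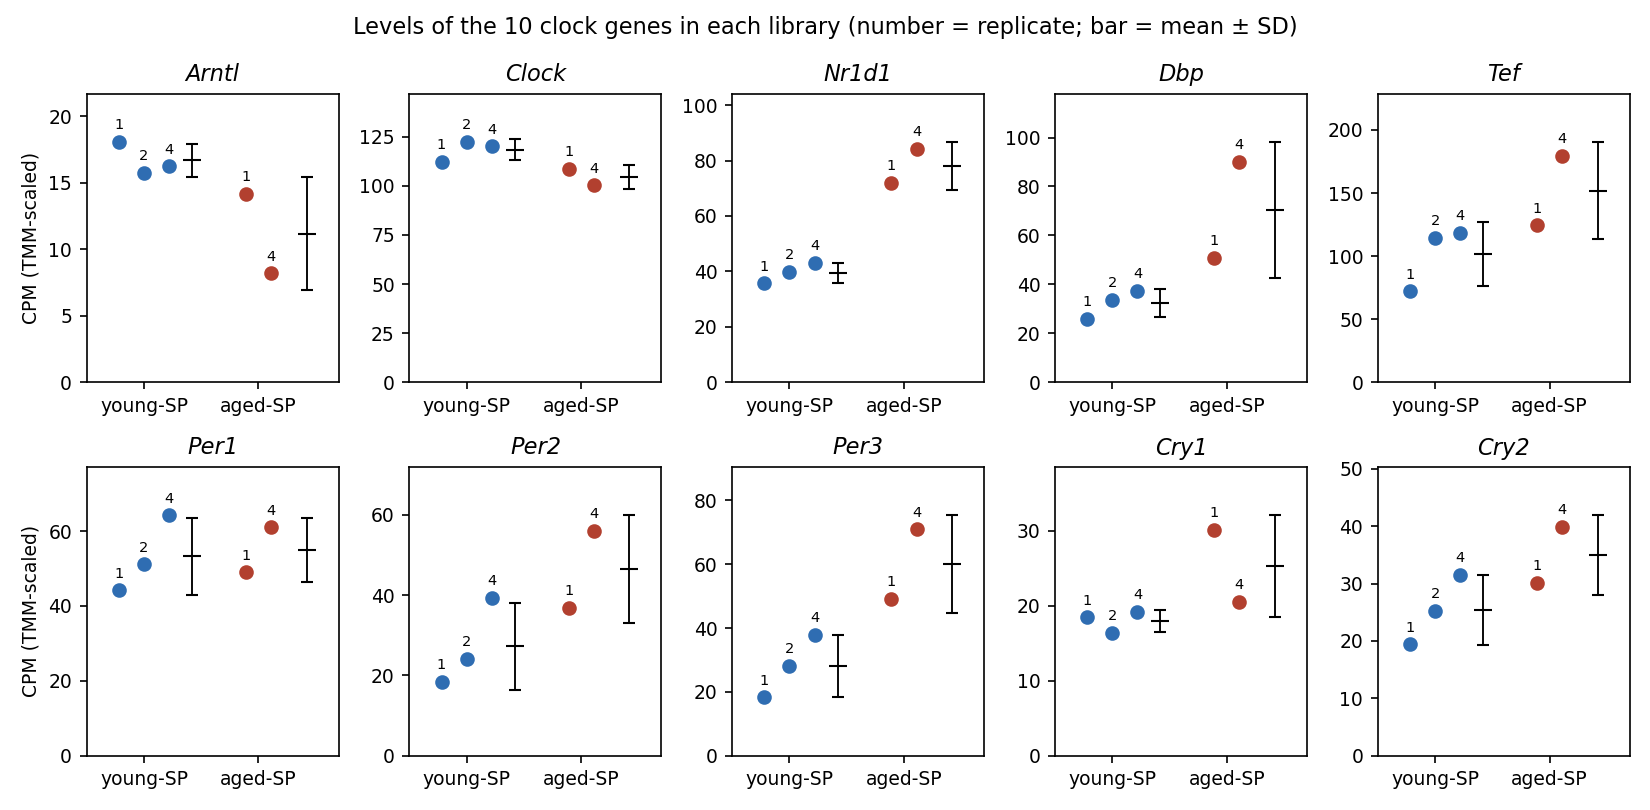
Levels of the 10 clock genes in CPM after TMM scaling (linear axis from 0), with 1 point per library, its replicate number above it, and a bar for the mean ± SD of each group (n = 3 for young-SP, blue; n = 2 for aged-SP, red). Nr1d1 lay at 72.0 and 84.3 CPM in the aged-SP libraries and at or below 43.1 CPM in the young-SP libraries, whereas the groups overlapped for Per1.

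Nr1d1 encodes the repressor REV-ERBα and lies at chromosome 11 (98767932 to 98775333, GRCm38). Its level was 72.0 and 84.3 CPM in aged-SP replicates 1 and 4, and 35.8, 39.8 and 43.1 CPM in young-SP replicates 1, 2 and 4. Both aged-SP libraries thus stood well above all young-SP libraries, with little spread inside either group (78.1 ± 8.70 CPM, SD, n = 2, against 39.5 ± 3.65 CPM, SD, n = 3). The log2 fold change was 0.98, with a standard error (SE) of 0.12. The adjusted p was 0.0674 by edgeR, the smallest of the members, and 7.89e-07 by DESeq2. By its p, Nr1d1 stood at place 71 of the 17013 tested genes in edgeR's test. Its exons overlap those of Thra on the other strand over 8.55% of its exonic bases, and without strand in the counting the reads there cannot be told apart. Thra itself was at 77.2 and 82.8 CPM in the aged-SP libraries and between 61.4 and 84.0 CPM in the young-SP libraries, so that its groups overlapped. Nr1d2, the related repressor REV-ERBβ and not a member, was at 166 and 184 CPM in the aged-SP libraries and at 84.3, 113 and 114 CPM in young-SP replicates 1, 2 and 4. It too showed no overlap, at 0.75 on the log2 scale (SE 0.16, edgeR adjusted p = 0.107).

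Arntl, the activator subunit that NR1D1 represses, lies at chromosome 7 (113207465 to 113314126). It was at 14.1 and 8.19 CPM in aged-SP replicates 1 and 4, and at 18.1, 15.7 and 16.2 CPM in young-SP replicates 1, 2 and 4. The aged-SP libraries were below all young-SP libraries, but they differed from each other by more than the 3 young-SP libraries did. The log2 fold change was -0.58 (SE 0.26, edgeR adjusted p = 0.307), and it was -0.24 without aged-SP replicate 4 and -1.03 without aged-SP replicate 1. Clock, the partner of Arntl on chromosome 5, which changes little over the day in many tissues, was at 109 and 100.4 CPM in the aged-SP libraries and at 112, 123 and 120.2 CPM in young-SP replicates 1, 2 and 4. These groups did not overlap either, but the gap between them was small, at -0.18 on the log2 scale (SE 0.09, edgeR adjusted p = 0.351).

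Dbp and Tef are the output factors of the PAR bZIP family. Dbp, on chromosome 7 (45705088 to 45710203), was at 50.8 and 90.2 CPM in aged-SP replicates 1 and 4, and at 25.9, 33.7 and 37.4 CPM in young-SP replicates 1, 2 and 4. Its log2 fold change of 1.12 (SE 0.28) was the largest of the members in edgeR, where the adjusted p was 0.134, against 0.00635 by DESeq2. The size of the difference rested largely on aged-SP replicate 4, without which the log2 fold change was 0.65. Exons of Sphk2 on the other strand cover 18.0% of the exonic bases of Dbp, and the part of those reads in the values of Dbp was not tested. Sphk2 was at 29.9 and 24.9 CPM in the aged-SP libraries and between 33.6 and 36.6 CPM in the young-SP libraries. Tef, on chromosome 15, was at 125 and 179 CPM in aged-SP replicates 1 and 4, and at 72.2, 114 and 118 CPM in young-SP replicates 1, 2 and 4. The groups did not overlap, but aged-SP replicate 1 was close to young-SP replicates 2 and 4 (log2 fold change 0.58, SE 0.26, edgeR adjusted p = 0.312).

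The Per genes encode the inhibitors that enter the nucleus with the CRY proteins. Per3, on chromosome 4 (151003652 to 151044665), was at 49.3 and 70.9 CPM in aged-SP replicates 1 and 4, and at 18.3, 28.3 and 37.9 CPM in young-SP replicates 1, 2 and 4. The groups did not overlap, and the difference was 1.09 on the log2 scale (SE 0.32, edgeR adjusted p = 0.174, DESeq2 Wald adjusted p = 0.0271). Per2, on chromosome 1, was at 36.9 and 56.0 CPM in the aged-SP libraries and at 18.4, 24.1 and 39.3 CPM in young-SP replicates 1, 2 and 4. Young-SP replicate 4 lay above aged-SP replicate 1, so that the groups overlapped (log2 fold change 0.77, SE 0.35, edgeR adjusted p = 0.317). Per1, on chromosome 11, which is also an immediate early gene that responds to glucocorticoids, was at 49.0 and 61.0 CPM in the aged-SP libraries and at 44.2, 51.2 and 64.3 CPM in the young-SP libraries. Its highest library was young-SP replicate 4, and its log2 fold change was 0.05 (SE 0.19, edgeR adjusted p = 0.916).

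The Cry genes encode the stronger inhibitors of the loop. Cry1, on chromosome 10, was at 30.1 and 20.5 CPM in aged-SP replicates 1 and 4, and at 18.5, 16.4 and 19.2 CPM in young-SP replicates 1, 2 and 4. Here aged-SP replicate 1 was the highest library and aged-SP replicate 4 lay just above the young-SP libraries (log2 fold change 0.49, SE 0.20, edgeR adjusted p = 0.263). Cry2, on chromosome 2, was at 30.1 and 39.9 CPM in the aged-SP libraries and at 19.4, 25.3 and 31.6 CPM in young-SP replicates 1, 2 and 4. Its groups overlapped (log2 fold change 0.46, SE 0.24, edgeR adjusted p = 0.362). Cry1 was the only member other than Arntl and Clock for which aged-SP replicate 1 exceeded aged-SP replicate 4.

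Per length, in the FPKM deposited by the authors, Nr1d1 (mean of the 5 libraries 17.8), Dbp (15.9) and Tef (15.5) were the most abundant members. Dbp ranged from 8.59 to 30.1 FPKM and Tef from 9.11 to 22.8 FPKM, so that the order of these 3 was not separated from their spread over libraries. Per1 (9.57 FPKM), Clock (8.21 FPKM), Cry1 (6.25 FPKM), Per2 (5.95 FPKM), Cry2 (4.62 FPKM) and Per3 (4.25 FPKM) followed, and the ranges of each of these neighbours overlapped. Arntl was lowest, between 1.09 and 2.38 FPKM, and had the lowest value of the members in 4 of the 5 libraries. The exception was young-SP replicate 1, in which Per3 was lower, at 1.89 FPKM.

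The members varied together within the groups as well as between them. Aged-SP replicate 4 was the highest library for 6 members (Per2, Per3, Cry2, Nr1d1, Dbp and Tef) and the lowest for Arntl and Clock. Young-SP replicate 1 was the lowest for 7 (Per1, Per2, Per3, Cry2, Nr1d1, Dbp and Tef) and the highest for Arntl. For the same 7 genes, replicate 4 was the highest young-SP library, replicate 2 lay between, and aged-SP replicate 4 exceeded aged-SP replicate 1. This ordering of libraries inside both groups was described after the values were seen, and 11.7% of all tested genes also had it.

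**Figure D2:**
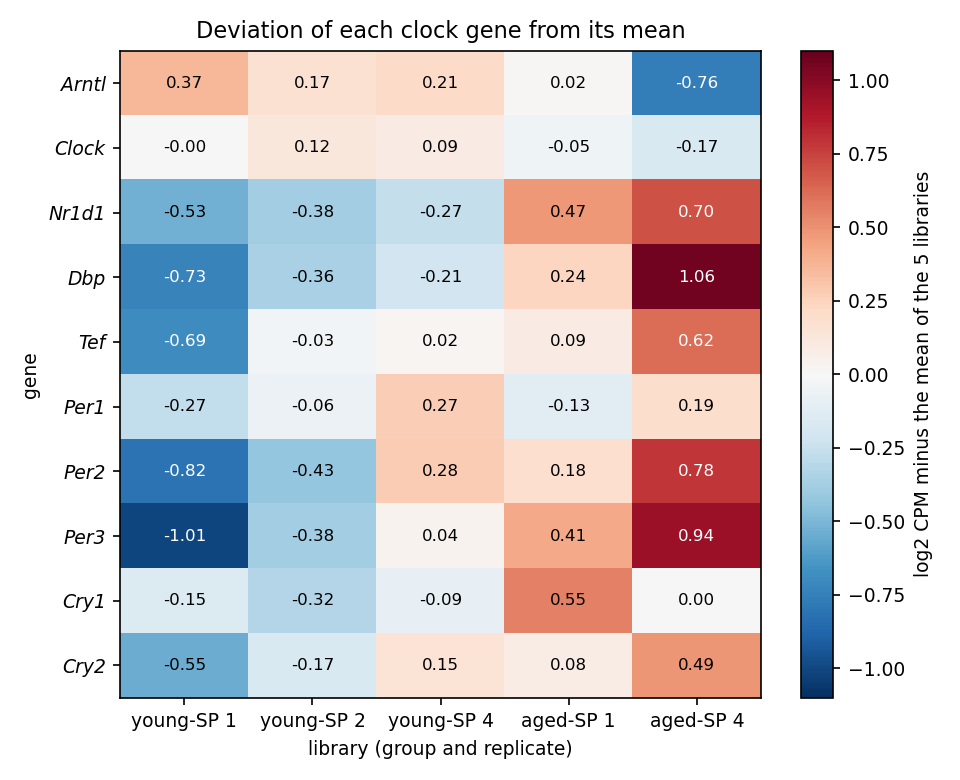
Each cell gives the log2 CPM of a clock gene (row) in a library (column) minus its mean over the 5 libraries, on a colour scale from blue (below the mean) to red (above). Dbp, Per3 and Per2 run from -0.73, -1.01 and -0.82 in young-SP replicate 1 to 1.06, 0.94 and 0.78 in aged-SP replicate 4, while Arntl runs from 0.37 to -0.76.

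To place the libraries relative to each other, a day-minus-night index was formed as the mean log2 CPM of Per1, Per2, Per3, Nr1d1, Dbp and Tef minus that of Arntl and Clock, with the mean over the 5 libraries set to 0. The index was -0.86, -0.42 and -0.13 in young-SP replicates 1, 2 and 4, and 0.23 and 1.18 in aged-SP replicates 1 and 4. The groups did not overlap on it, with means of -0.47 ± 0.37 (SD, n = 3) and 0.70 ± 0.67 (SD, n = 2), a difference of 1.17 on the log2 scale. The gap between young-SP replicate 4 and aged-SP replicate 1 was 0.36, smaller than the span inside the young-SP group (0.73) or the aged-SP group (0.95). The libraries thus formed a graded series, with the nearest libraries of the groups closer to each other than the members of either group were among themselves at their widest. The genes of the index were chosen with earlier results of these data known, so the index was given no test. Its difference was 0.70 without aged-SP replicate 4 and 1.65 without aged-SP replicate 1.

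Both sides of the index differed between the group means, but not evenly over libraries and genes. The 6 genes of its day side differed by 0.77 between the group means and the pair of Arntl and Clock by -0.40. Relative to its mean over the libraries, that pair was at -0.02 and -0.46 in aged-SP replicates 1 and 4. It was between 0.15 and 0.18 in the young-SP libraries, so that its difference rested largely on aged-SP replicate 4. On the day side, Per1 had a log2 fold change of only 0.05. Ratios of 2 clock genes within a library do not depend on how libraries are scaled to each other. The FPKM ratio of Nr1d1 to Arntl was 12.4 and 25.2 in aged-SP replicates 1 and 4, and 4.84, 6.19 and 6.49 in young-SP replicates 1, 2 and 4. The ratio of Dbp to Arntl was 9.03 and 27.7 in the aged-SP libraries and between 3.60 and 5.79 in the young-SP libraries. Neither ratio overlapped between the groups. The ratio of Nr1d2 to Arntl, which uses no gene with an overlapping Thra exon, was 16.3 and 31.2 in the aged-SP libraries and between 6.48 and 10.01 in the young-SP libraries. The ratio of Per2 to Arntl was 3.35 in aged-SP replicate 1 and 3.11 in young-SP replicate 4, which are almost the same. Each of these ratios is taken to Arntl, which had as few as 128 counts (aged-SP replicate 4). The ratio of Nr1d2 to Npas2, which uses no member, was 6.29 and 21.7 in aged-SP replicates 1 and 4. It was 4.29, 7.71 and 4.94 in young-SP replicates 1, 2 and 4, so that the groups overlapped.

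A second, late-minus-early index set Per2 and Cry1, which peak later, against Nr1d1 and Dbp, which peak earlier. It was 0.15, -0.01 and 0.33 in young-SP replicates 1, 2 and 4, and 0.01 and -0.49 in aged-SP replicates 1 and 4. The groups overlapped on it, since aged-SP replicate 1 lay between the young-SP libraries, and aged-SP replicate 4 stood alone at the low end. The difference of the means was -0.40 on the log2 scale, -0.14 without aged-SP replicate 4 and -0.65 without aged-SP replicate 1. The ratio of Per2 to Nr1d1 did not separate the groups either, at 0.269 and 0.349 FPKM per FPKM in the aged-SP libraries and between 0.270 and 0.480 in the young-SP libraries. The first index therefore differed between the groups without a matching separation on the second. No library is a time series, and the values give neither an hour of the day nor the direction of a shift.

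**Figure D3:**
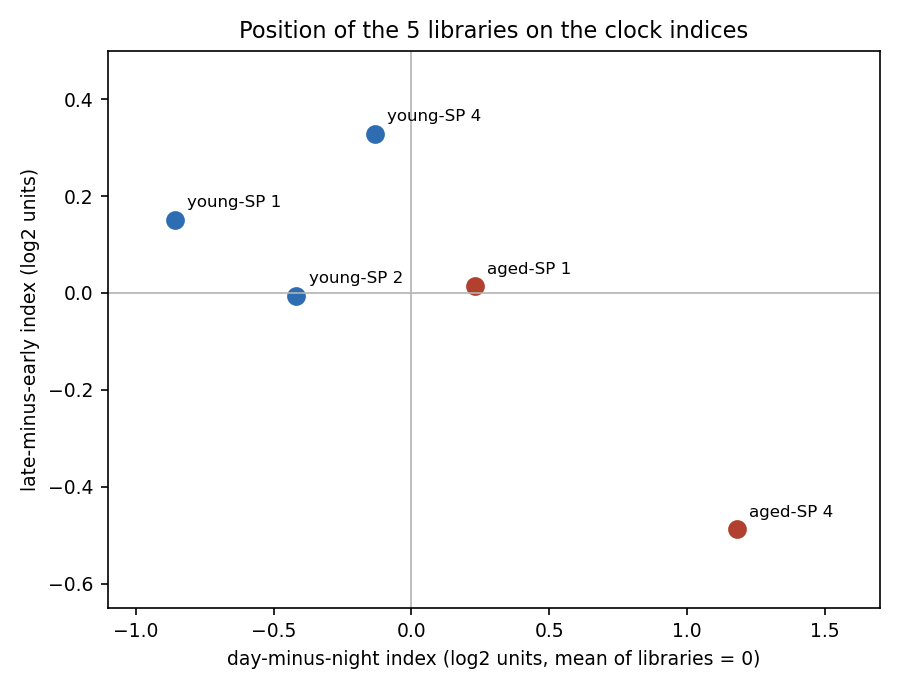
Position of the 5 libraries on the day-minus-night index (horizontal, log2 units) and the late-minus-early index (vertical, log2 units), each relative to the mean of the libraries, with young-SP in blue and aged-SP in red. The young-SP libraries lie between -0.86 and -0.13 on the first index and the aged-SP libraries at 0.23 and 1.18, while aged-SP replicate 1 and young-SP replicate 2 lie side by side on the second, at 0.01 and -0.01.

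Over the log2 CPM of the 10 members, the smallest root mean square distance between libraries was that of young-SP replicates 2 and 4 (0.31), and the largest was that of aged-SP replicate 4 and young-SP replicate 1 (1.24). Aged-SP replicate 1 was closer to young-SP replicate 4 (0.39) than to aged-SP replicate 4 (0.53). Over all tested genes the reverse held, with a distance of 0.92 between aged-SP replicate 1 and young-SP replicate 4 and of 0.61 between the aged-SP libraries. Aged-SP replicate 4 and young-SP replicate 1 were 0.69 apart over all tested genes, where other pairs reached 0.95, so that the pair that differed the most in clock genes did not do so in the transcriptome as a whole.

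Among 12 further clock genes, 0 were called by edgeR (0.147% of all tested genes), 5 had an unadjusted p under 0.05 (19.0%), and the groups did not overlap for 6 genes that were higher and 2 that were lower in the aged-SP group (38.8%, with 19.5% higher and 19.3% lower). On the negative limb, Bhlhe40 and Bhlhe41 encode DEC repressors of E-box genes, and Ciart encodes a repressor of the activator pair. Bhlhe40 was at 47.9 and 46.5 CPM in the aged-SP libraries and at 32.3, 15.02 and 17.0 CPM in young-SP replicates 1, 2 and 4 (log2 fold change 1.14, edgeR adjusted p = 0.176). Bhlhe41, at a low level of 2.60 and 4.41 CPM against 1.60 to 2.003 CPM, was 1.01 higher on the log2 scale (edgeR adjusted p = 0.198). Ciart, also low, was at 2.06 and 3.26 CPM in the aged-SP libraries and at 1.47 to 1.95 CPM in the young-SP libraries. Hlf, the third PAR bZIP factor, did not follow Dbp and Tef: it was at 17.0 and 30.2 CPM in aged-SP replicates 1 and 4 and at 11.8, 31.6 and 27.8 CPM in young-SP replicates 1, 2 and 4 (log2 fold change -0.01, edgeR adjusted p = 0.994).

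On the positive limb, Rora, which encodes a ROR activator, was at 43.8 and 35.8 CPM against 22.0 to 33.5 CPM (log2 fold change 0.53, edgeR adjusted p = 0.246). Npas2, which can replace Clock, and Nfil3, which opposes DBP at D-boxes, are usually in phase with Arntl, and neither separated the groups. Npas2 was at 23.4 and 7.48 CPM in aged-SP replicates 1 and 4 and between 13.0 and 20.4 CPM in the young-SP libraries. Nfil3 was at 38.8 and 22.9 CPM in the aged-SP libraries and between 18.6 and 23.9 CPM in the young-SP libraries. For both genes, as for Arntl and Cry1, aged-SP replicate 4 was lower than aged-SP replicate 1.

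**Figure D4:**
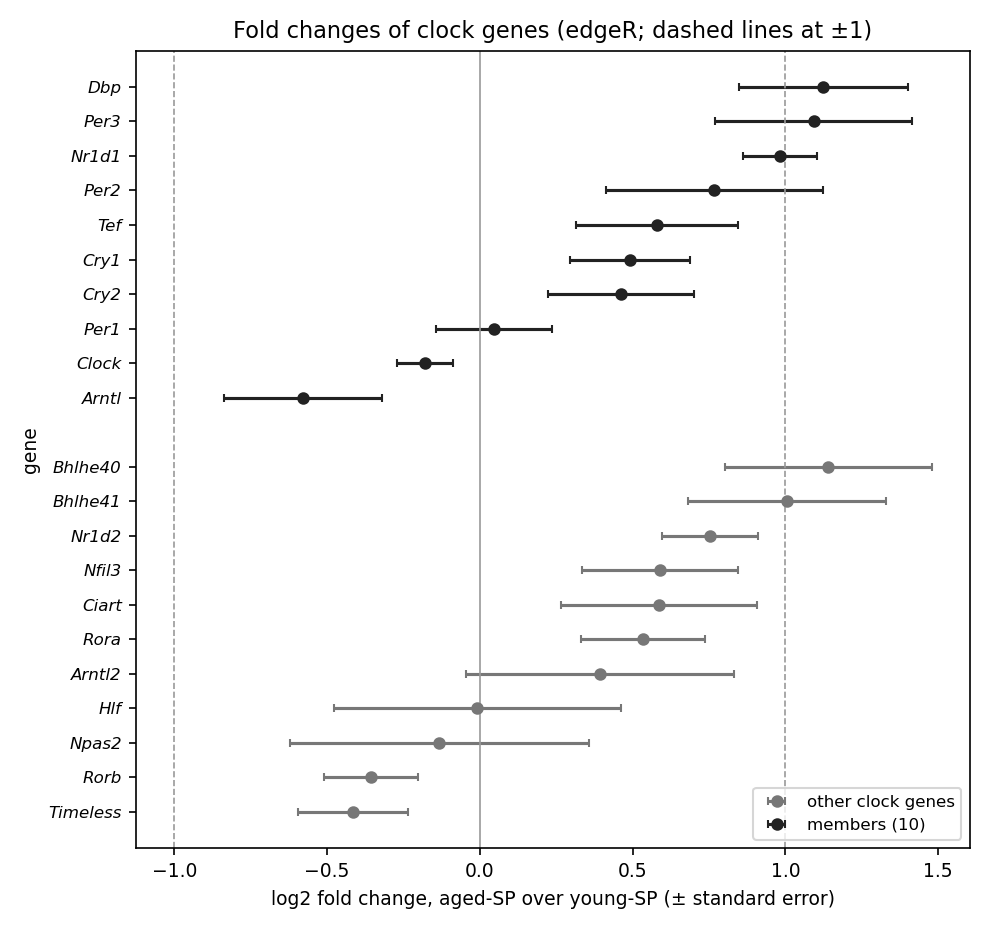
Log2 fold changes of the aged-SP over the young-SP group from edgeR (points) with their standard errors (bars) for the 10 members (black) and further clock genes (grey), with dashed lines at the fold limit of ±1. Dbp and Per3 lie beyond 1 and Nr1d1 at 0.98 with a short bar, Arntl is lowest at -0.58, and 0 of the genes shown passed the adjusted p.

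Genes of clock protein turnover and the common outputs were described in the same way, and 0 were called. Of 11 genes that act on clock proteins (kinases, ubiquitin ligases and proteases), the median log2 fold change was 0.06, close to that of all tested genes (0.01). Csnk1e, the casein kinase that phosphorylates PER proteins, was at 59.5 and 61.8 CPM in the aged-SP libraries and at 40.4, 40.6 and 43.3 CPM in the young-SP libraries (log2 fold change 0.55, edgeR adjusted p = 0.0757). Fbxw11, a ubiquitin ligase subunit that acts on PER, was at 111 and 88.5 CPM against 83.2 to 88.1 CPM (edgeR adjusted p = 0.371). Of 8 common outputs, 5 had a log2 fold change above 0, with a median of 0.33. Tspan4, a tetraspanin, was at 63.1 and 70.7 CPM against 40.9 to 46.5 CPM (edgeR adjusted p = 0.0767). Pdk4, the kinase that limits entry of pyruvate into the citric acid cycle and that rises with fasting, was at 21.04 and 44.7 CPM in aged-SP replicates 1 and 4 and at 7.51, 4.67 and 8.74 CPM in young-SP replicates 1, 2 and 4, which is 2.24 higher on the log2 scale (edgeR adjusted p = 0.0867). The groups overlapped for the other outputs, of which Nampt, Tsc22d3 and Hsd11b1 had higher means in the aged-SP group and Usp2, Wee1 and Ppard lower means. Usp2, a deubiquitinase, was at 19.6 and 18.5 CPM in the aged-SP libraries and at 16.3, 35.0 and 34.6 CPM in young-SP replicates 1, 2 and 4, and Wee1, a cell cycle kinase, was at 22.2 and 32.8 CPM against 28.3, 38.2 and 41.5 CPM.

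By closeness of the centred log2 CPM profile over the 5 libraries, among 13433 genes with a symbol and a mean of at least 50 counts, the genes most like Nr1d1 were Gpr137b (root mean square difference 0.08), Cbx7 (0.08) and Plekhf1 (0.08). Those most like Arntl were Trmt61b (0.07), Cbfa2t2 (0.09) and Arxes2 (0.10). None of these genes is in the clock lists. The profiles rest on 5 libraries, and the distances are given as a description.

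Other genes differed among the same libraries, and their part in the clock values was not tested. Of 5 proliferation genes, 0 had a log2 fold change above 0, and their summed level was 303 and 315 CPM in the aged-SP libraries and 773, 446 and 342 CPM in young-SP replicates 1, 2 and 4, so that the library with the lowest day-minus-night index had the highest level of proliferation genes. Of the 7 progesterone-response genes, the groups did not overlap for 6, each lower in the aged-SP group, against 38.8% of all tested genes (19.3% lower). The exception, Cyp26a1, which encodes an enzyme that degrades retinoic acid, was at 103.8 CPM in aged-SP replicate 1 and between 2.30 and 3.40 CPM in the other libraries. With it, the list summed to 311 to 363 CPM in the aged-SP libraries against 427 to 434 CPM. Of the 6 tested estrogen-response genes, 5 had a log2 fold change above 0. The groups did not overlap for 2 of them, both higher in the aged-SP group, against 38.8% of all tested genes (19.5% higher). These were Greb1 (40.9 and 60.2 CPM in the aged-SP libraries against 10.6 to 17.5 CPM) and C3 (4944 and 3018 CPM against 347 to 1759 CPM). Ltf, Lcn2, Sprr2f and Clca1 overlapped between the groups. The summed level was high in young-SP replicate 1 as in the aged-SP libraries, with Ltf as its largest part there (3632 CPM). The clock index of young-SP replicate 1 was the lowest of the libraries. The uterine gland genes summed to 2631 and 2166 CPM in the aged-SP libraries and to 417, 50.3 and 41.5 CPM in young-SP replicates 1, 2 and 4. Most of this sum was Prss29, a protease gene, at 2458 and 2137 CPM in the aged-SP libraries and at 385, 2.96 and 11.5 CPM in young-SP replicates 1, 2 and 4. Of the other gland genes, Foxa2 and Lif overlapped between the groups, Cxcl15 was lower in the aged-SP libraries (2.90 and 1.92 CPM against 8.14 to 20.2 CPM), and Spink1 was high in aged-SP replicate 1 alone (153 CPM against 7.74 to 12.2 CPM). Endothelial genes (406 to 699.7 CPM) and leukocyte genes (180 to 317 CPM) were present in all libraries. The uterine epithelium genes were highest in young-SP replicate 1 (1571 CPM, against 1248 and 1255 CPM in the aged-SP libraries). The endometrial stroma genes summed to 6304 and 7774 CPM in the aged-SP libraries and to between 8403 and 11112 CPM in the young-SP libraries. A large part of this difference was Col1a1, at 2412 and 2869 CPM in the aged-SP libraries against 4382 to 5232 CPM. The groups did not overlap for 4 of the 8 stroma genes, each lower in the aged-SP group, against 38.8% of all tested genes (19.3% lower). Vim, Lum, Hoxa10 and Dcn overlapped between the groups, and Dcn had a higher mean in the aged-SP group (2129 against 2022 CPM). Without young-SP replicate 1, the log2 fold change of Nr1d1 was 0.90 (edgeR adjusted p = 0.0295), that of Dbp 0.97 and that of Per3 0.85. In that fit 0 members passed both limits, where 3.45% of all tested genes did.

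**Figure D5:**
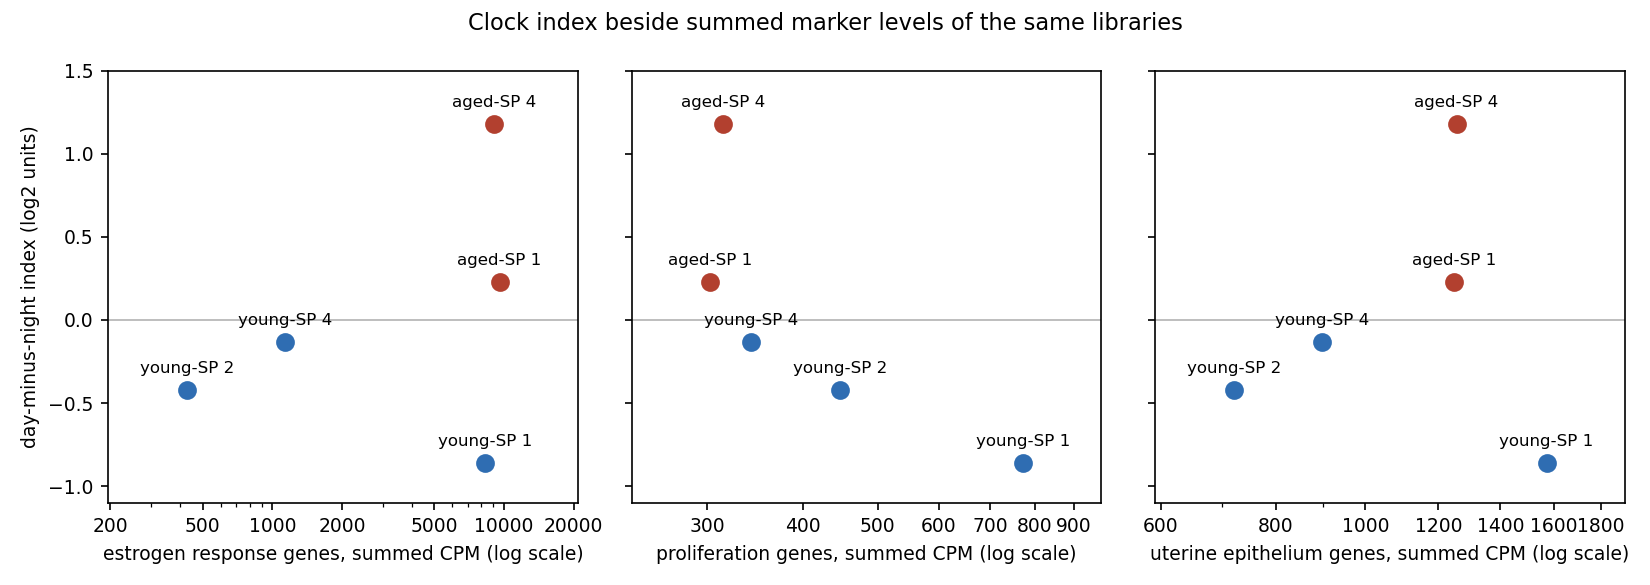
Day-minus-night index (vertical, log2 units) of each library beside the summed CPM of 3 marker lists (horizontal, log scale), with young-SP in blue and aged-SP in red. Young-SP replicate 1 lies near the aged-SP libraries on the summed estrogen-response genes (8270 against 9093 and 9581 CPM), although Greb1 and C3 of that list separated the groups. Its index is the lowest (-0.86), and it has the highest level of proliferation genes (773 CPM).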

How the data were processed

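Uterine RNA of 2 aged-SP and 3 young-SP libraries was analysed, grouped by the sample titles. The paper reports that a young-SP sample was left out as an outlier after clustering of the expression data. The young-SP spread given here is therefore that of the libraries kept. Per the labels, libraries were made with a NEBNext Ultra kit, which does not mark strand, and the submitters' processing notes name HISAT2 2.1.0, Bowtie2 2.2.3 and HTSeq 0.6.0. The authors deposited the raw count of each gene, used here for all tests. The FPKM values that the authors deposited equal the counts over gene length and library total, as checked on the values. Columns of the authors' own comparison (a mean signal over libraries, the fold ratio, its log2 and the p-value before and after adjustment) were deposited beside the counts and were not used. Positions follow GRCm38, since those of 26998 of the 28666 genes equal GENCODE M21.

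Genes were kept by filterByExpr, scaled by TMM and compared with edgeR 4.0.16 (glmQLFit, glmQLFTest, two-sided, Benjamini-Hochberg over 17013 genes) in R 4.3.3. DESeq2 1.42.0 and limma-voom (limma 3.58.1) were alternatives, and fits were tested on simulated data. Calls used both limits that the paper's methods name (adjusted p 0.05, log2 change 1). A prior count of 2 entered log2 CPM. The standard error is the log2 fold change divided by the root of the F statistic.

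Named genes were the members, the 2 genes with the smallest p of each list beside relatives of the members, and the 3 profiles closest to Arntl and to Nr1d1. Usp2, Wee1, Ppard, Nampt, Tsc22d3, Cyp26a1, Ltf, Lcn2, Sprr2f, Clca1 and the gland genes were added after their values were seen. So were Rorb, Timeless, Vim, Lum, Hoxa10 and Dcn. The same holds for the genes read for overlapping exons (Thra and Sphk2). A gene of the lists is not reported here. The members and lists were chosen with earlier results of these data known. Scaling by DESeq2 size factors or by totals was also tried, as were other filters on low counts, a replicate block, the adjusted p alone, a prior count of 0.5, other genes for the indices, and the omission of each library in turn.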

Additional observations from a re-analysis of the deposited data

How the results depend on the processing

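The count of called members (0) was 2 with DESeq2's Wald test (Dbp and Per3) and 0 under every other alternative run. The 58 genes of the 7 related lists outside the members gave 0 calls, 5 with DESeq2's Wald test (among them Hsd11b1, Pdk4, Fosl2 and Bhlhe40), 2 with no filter on low counts (among them Pdk4), and between 0 and 2 with 1 library left out, where the 2 (among them Bhlhe40) came without young-SP replicate 1. Over all tested genes the 25 calls became 632 with DESeq2's Wald test, 203 with no filter, 2 with the replicate block, and between 1 and 578 with 1 library left out (1 without aged-SP replicate 1, 49 without aged-SP replicate 4, 578, 3 and 2 without young-SP replicates 1, 2 and 4). The cause was not tested. Of 120 values of the members under 12 alternatives, 116 kept their direction and their side of the threshold, 2 passed it (Dbp and Per3 with DESeq2), and 2 turned their direction: the log2 fold change of Per1 was -0.12 without aged-SP replicate 4 and -0.08 without young-SP replicate 1, within a range of -0.12 to 0.20 with 1 library left out. Nr1d1 had an adjusted p between 7.89e-07 and 0.240 over these alternatives, and it was under 0.05 with DESeq2, with no filter (0.0240) and without young-SP replicate 1 (0.0295). The difference in the day-minus-night index lay between 0.81 and 1.65 with other scalings and genes, and between 0.70 and 1.65 with 1 library left out. The difference in the late-minus-early index was -0.17 for Per2 minus Nr1d1 and lay between -0.65 and -0.14 with 1 library left out. With the replicate block, 0 members were called, and the adjusted p of Nr1d1 was 0.149. The labels do not say that equal numbers mark a shared litter or day. Deviations from the group means correlated at 0.15 for replicates numbered 1 and 0.14 for those numbered 4. Aged-SP replicate 4 with young-SP replicate 2 gave 0.08. With 2 aged-SP libraries their deviations mirror each other, so these correlations are not independent and cannot decide on a pairing. The block was kept as an alternative. Each member had at least 128 counts in every library, and what depth or group size contributed to the number of calls was not tested.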

Other observations

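Gene groups that also change with time of day, feeding, stress or handling were read in the same libraries, and 0 of their genes were called by edgeR. Of 9 genes that respond to glucocorticoids, 8 had a log2 fold change above 0, with a median of 0.35 against 0.01 for all tested genes. The groups did not overlap for only 2 of the 9 (Klf9 and Cdkn1a), both higher in the aged-SP group. Over all tested genes this share was 38.8% (19.5% higher). Klf9 was at 209 and 184 CPM in the aged-SP libraries and at 120.5, 138 and 139 CPM in young-SP replicates 1, 2 and 4 (edgeR adjusted p = 0.0957), and Cdkn1a was at 19.0 and 21.1 CPM against 10.3 to 14.4 CPM (edgeR adjusted p = 0.152). The classical target Fkbp5 overlapped between the groups, at 60.3 and 86.3 CPM against 54.0 to 78.7 CPM, and the median includes the member Per1. Of 12 immediate early genes, the groups did not overlap for 3, a smaller share than the 38.8% of all tested genes. Fosl2 was at 276 and 165 CPM against 92.7 to 115 CPM (log2 fold change 1.11, edgeR adjusted p = 0.107) and Atf3 at 15.2 and 12.3 CPM against 5.97 to 9.82 CPM (edgeR adjusted p = 0.184). Fos, a classical gene of the list, was at 25.5 and 9.34 CPM in aged-SP replicates 1 and 4 and at 8.19, 8.39 and 20.6 CPM in young-SP replicates 1, 2 and 4.

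Of 9 genes that follow temperature, the heat shock genes Dnajb1 (59.7 and 64.6 CPM against 44.6 to 47.4 CPM) and Hspa1b (109 and 76.9 CPM against 45.5 to 61.2 CPM) were higher in both aged-SP libraries, with adjusted p of 0.0998 and 0.149 in edgeR. The other heat shock genes were not alike: Hspa1a and Hspa8 were also higher in both, Hsp90aa1 was lower in both (524 and 481 CPM against 559 to 682 CPM), and Hsph1 and Hspb1 overlapped between the groups. Of the cold-induced genes, Rbm3 was lower in both aged-SP libraries (134 and 133 CPM against 142 to 192 CPM), and Cirbp overlapped between the groups (56.0 and 65.6 CPM against 51.5 to 59.4 CPM). Hsd11b1, which encodes the enzyme that regenerates active glucocorticoid, was at 340.05 CPM in aged-SP replicate 1 and at 7.61 CPM in aged-SP replicate 4, and between 3.61 and 9.61 CPM in the young-SP libraries, so that its log2 fold change of 4.53 rested on 1 library. Fkbp5, Fos, Rbm3, Cirbp, Hsd11b1 and the heat shock genes other than Dnajb1 and Hspa1b were named after their values were seen.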
